A study of Rattus norvegicus with 36 samples.

Results

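The enzymes described here are the 8 genes Gnmt, Mat1a, Bhmt, Cbs, Cth, Ahcy, Pemt and Shmt1, which carry the methionine cycle and its one-carbon branches in rat liver. They were taken by gene symbol from the platform annotation of the array, where each of the 8 had a single probe set, so that 8 of 31042 tested probe sets (8 of 14217 gene symbols) are concerned. A probe set is a group of short probes read together as a single value for a transcript. The set was chosen by the fall of Gnmt at the top dose against vehicle in these same arrays, so the values of that contrast are given as a description. Values and calls of Gnmt at the top dose in any other comparison are descriptions as well.

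The study dosed male Harlan Sprague Dawley rats by oral gavage with hexabromocyclododecane (HBCD), a brominated flame retardant, in corn oil. Rats were 7 weeks old at the start and were gavaged daily for 5 days. The dose groups were 0.06 mg/kg, 0.641 mg/kg, 6.41 mg/kg, 64.1 mg/kg and 641 mg/kg, and the vehicle group received corn oil alone, all in 5 ml/kg. All rats shared the same diet, and RNA came from the left liver lobe taken a day after the last dose. There were 36 arrays, 6 in each of the 6 groups, but no label ties an array to its own animal. The p-values of the group comparisons therefore set differences between groups against the spread between arrays, which could be partly technical.

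Methionine is activated to S-adenosylmethionine by the liver enzyme encoded by Mat1a. Methyltransferases then use this methyl donor, Gnmt to methylate glycine and Pemt to make phosphatidylcholine, and the product is split by Ahcy into adenosine and homocysteine. Homocysteine is either methylated back to methionine, by Bhmt with betaine as the donor, or sent through Cbs and Cth to cysteine, the amino acid whose supply limits glutathione synthesis. Shmt1 moves a carbon unit from serine to folate and makes glycine.

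At 641 mg/kg, Gnmt was at 58.5% of its vehicle level, and the transcripts of Cth, the last enzyme on the way to cysteine, and of Pemt were also lower, at 79.5% and 83.4%. Mat1a, Bhmt, Cbs and Ahcy lay below vehicle by smaller amounts or with wide intervals and did not pass the test, and Shmt1 lay above vehicle without passing it. In total 3 of the 8 passed, all lower, against 1.65% of all probe sets called in either direction and 0.512% called lower. The call rule was an adjusted p under 0.05 from a moderated linear model (limma) over all probe sets. When only the 641 mg/kg and vehicle arrays were fitted, Cth and Pemt kept log2 fold changes of -0.33 and -0.26 but were not called (limma adjusted p = 0.098 and 0.0579), which left Gnmt. This contrast drew attention to the set, so nothing further is read from these counts. The median log2 fold change of the 8 was -0.20, beside -0.0073 over all probe sets. At 64.1, 6.41, 0.641 and 0.06 mg/kg none of the 8 was called against vehicle, where the share of all probe sets called in either direction was 0.0419% for 64.1 mg/kg and 0% for each lower dose. An unadjusted limma p under 0.05 was found for 1 of 8 members at 64.1 mg/kg (5.94% of all probe sets), 0 at 6.41 mg/kg (4.13%), 0 at 0.641 mg/kg (4.76%) and 2 at 0.06 mg/kg (4.17%).

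**Figure D1:**
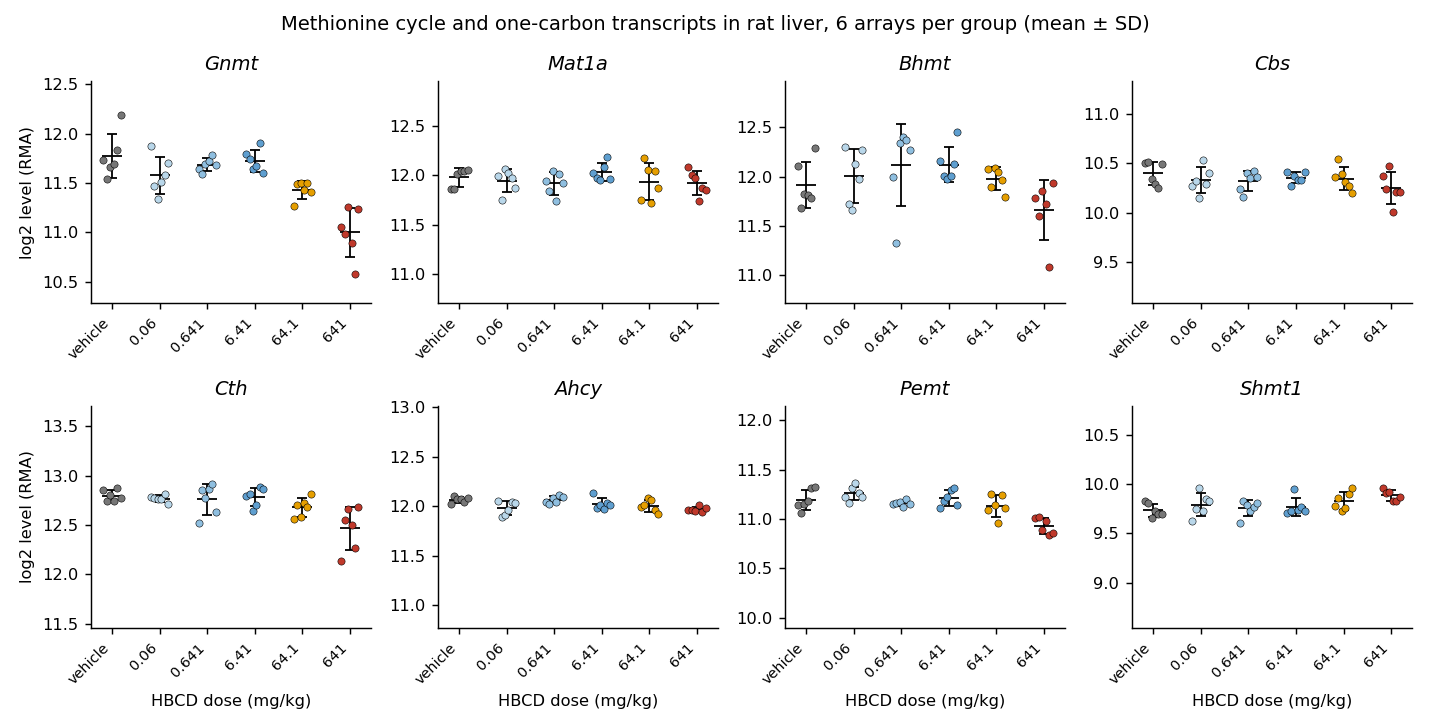
Log2 level of each of the 8 transcripts (vertical axes, each spanning an equal number of log2 units) on single arrays, by HBCD dose in mg/kg (horizontal axes, vehicle at the left), with group mean and SD as bars (n = 6 arrays per group). Gnmt is lowest at 641 mg/kg, where its 6 arrays lie between 10.58 and 11.26, Cth and Pemt are lower there as well, and Mat1a and Cbs overlap between all groups.

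Gnmt encodes glycine N-methyltransferase, an abundant liver enzyme that disposes of excess methyl groups. Its log2 level had a lowest, median and highest value of 11.54, 11.71 and 12.19 in vehicle livers. It had 11.34, 11.54 and 11.88 at 0.06 mg/kg, 11.60, 11.69 and 11.78 at 0.641 mg/kg, and 11.60, 11.70 and 11.91 at 6.41 mg/kg. At 64.1 mg/kg the values were 11.27, 11.46 and 11.50, and at 641 mg/kg they were 10.58, 11.02 and 11.26. All 6 arrays at 641 mg/kg lay below every array of the other 5 groups, and all 6 at 64.1 mg/kg lay below every vehicle array, as did 0.168% of all probe sets, but overlapped the 0.06 mg/kg group. Ordered by mean, the groups ran from 641 mg/kg (11.00 ± 0.25, SD, n = 6) through 64.1 (11.43 ± 0.09), 0.06 (11.58 ± 0.19), 0.641 (11.69 ± 0.07) and 6.41 mg/kg (11.73 ± 0.11) to vehicle (11.78 ± 0.23). The step between 641 and 64.1 mg/kg was the only one between neighbours in that order that exceeded the larger of their SDs.

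The fold change of Gnmt at 641 mg/kg against vehicle was 0.585 (95% confidence interval 0.512 to 0.669), or 1.71-fold lower. Against the mean of the 3 lowest doses it was 1.58-fold lower (1.42 to 1.77), and against 64.1 mg/kg 1.35-fold lower (1.18 to 1.54). These 3 values rest on the same 6 arrays and are descriptions. Against 64.1 mg/kg none of the other 7 members was called by limma, where 0.0515% of all probe sets were called lower and 0.242% in either direction. Of those 7, 3 (Bhmt, Cth and Pemt) had an unadjusted limma p under 0.05, where 9.15% of all probe sets did. At 64.1 mg/kg Gnmt stood 1.27-fold lower than in vehicle livers (1.11 to 1.45; limma adjusted p = 0.4325), with 6 of 6 arrays below the vehicle mean, and was not called. The comparison of 64.1 mg/kg against the 3 lowest doses has neither vehicle nor 641 mg/kg arrays in its means. There Gnmt stood 1.17-fold lower (1.05 to 1.31; limma adjusted p = 0.667, unadjusted 0.00523), again not called. Vehicle and 641 mg/kg arrays still enter the interval and p-values of that comparison, through the spread pooled over all groups. In that comparison none of the 8 was called, where 0.0354% of all probe sets were, and 1 of 8 had an unadjusted limma p under 0.05, where 5.98% of all probe sets did.

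In the 64.1 mg/kg group the summed linear level of 6 macrophage markers ranged from 1176 to 2539 with a median of 1815, against 2331 to 3173 with a median of 2421 in vehicle livers, and all 6 markers lay below vehicle with none called. By log2 fold change all 6 also lay below vehicle at 6.41, 0.641 and 0.06 mg/kg, with none called. The median of the sum was not lower at those doses, at 2424, 2437 and 2484. The median log2 fold changes of the list there were -0.129, -0.202 and -0.138, beside -0.483 at 64.1 mg/kg. The part of these markers in the Gnmt values at 64.1 mg/kg was not tested. At 641 mg/kg the same sum ranged from 1977 to 2850, with a median of 2494, and 5 of the 6 markers lay below vehicle with none called. In whole liver, fewer cells of a type and less RNA per cell cannot be told apart.

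Cth encodes cystathionine gamma-lyase, which releases cysteine from cystathionine. Its lowest, median and highest log2 levels were 12.13, 12.53 and 12.68 at 641 mg/kg, against 12.74, 12.79 and 12.87 in vehicle livers. These groups did not overlap, and the 641 mg/kg arrays spread over 0.55 log2 units where vehicle spread over 0.13. The other 4 doses had means between 12.68 ± 0.09 at 64.1 mg/kg and 12.78 ± 0.09 at 6.41 mg/kg (SD, n = 6). Cth was 1.26-fold lower at 641 mg/kg than in vehicle livers (1.14 to 1.39). That interval takes a single spread pooled over the 6 groups, where the SD was 0.22 at 641 mg/kg and 0.05 in vehicle livers.

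Pemt encodes phosphatidylethanolamine N-methyltransferase, the liver enzyme that makes phosphatidylcholine by repeated methylation. Its log2 levels were 10.84, 10.93 and 11.02 (lowest, median and highest) at 641 mg/kg, against 11.06, 11.16 and 11.32 in vehicle livers. No array at 641 mg/kg reached the lowest array of vehicle or of any of the 3 lowest doses. Group means at the other doses lay between 11.13 ± 0.11 at 64.1 mg/kg and 11.26 ± 0.07 at 0.06 mg/kg (SD, n = 6). The fold change of Pemt at 641 mg/kg against vehicle was 0.834 (0.774 to 0.898), and the step to 64.1 mg/kg, the next group up in its order, also exceeded the larger SD.

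Because Gnmt was chosen at 641 mg/kg against vehicle, the other 7 were also set against the 18 arrays of the 3 lowest doses. This comparison shares the 641 mg/kg arrays, and vehicle arrays enter it only through the pooled spread. It is therefore not a separate test of a shared fall. Pemt fell 1.21-fold (1.14 to 1.29; limma adjusted p = 9.27e-05) and Cth 1.24-fold (1.14 to 1.34; limma adjusted p = 0.001985), each with 6 of 6 arrays below the mean of the lower doses. Bhmt stood 1.34-fold lower (1.13 to 1.58) just outside the threshold, with a limma adjusted p of 0.0584. Of these 7 members, 2 were called lower and none higher, where 0.786% of all probe sets were called lower, 1.18% higher and 1.97% in either direction. Pemt was the only 1 of the 7 that lay wholly below the 18 arrays, as did 0.0966% of all probe sets.

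**Figure D2:**
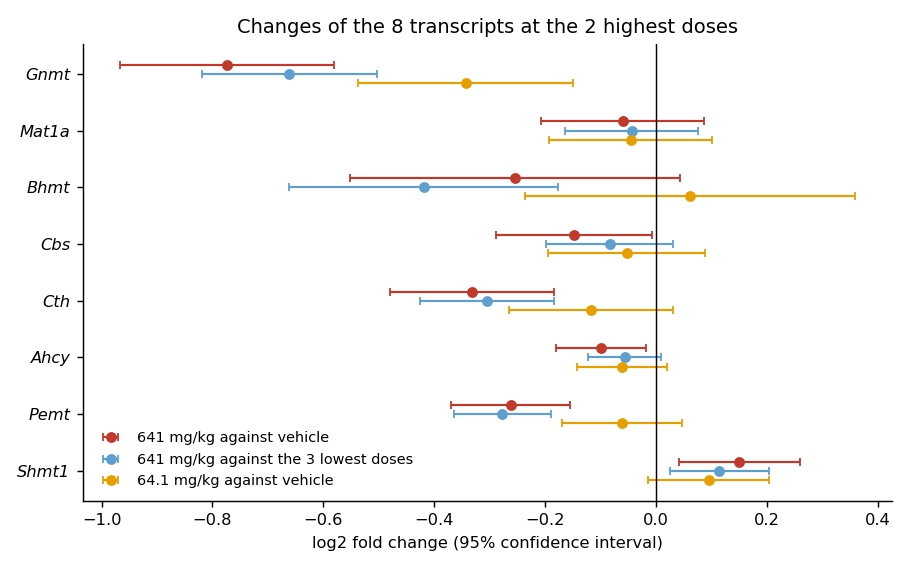
Log2 fold change (horizontal axis) with its 95% confidence interval for each of the 8 transcripts (vertical axis), in red for 641 mg/kg against vehicle, in blue for 641 mg/kg against the mean of the 3 lowest doses and in orange for 64.1 mg/kg against vehicle. Gnmt has the value farthest below 0 in all 3 comparisons, the red and blue intervals of Cth and Pemt lie below 0, and those of Shmt1 lie above 0 without a call. Also without a call, the red intervals of Cbs and Ahcy, the blue of Bhmt and the orange of Gnmt lie below 0.

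The bases before the RefSeq start of the 3 genes called lower are shown because these members were lower together and a reader may want to compare their promoters. The windows hold the 250 bases up to the start in RefSeq assembly GRCr8, given 5′ to 3′ on the strand of the gene, at chr9:21752032-21752281 (plus strand) for Gnmt, chr2:249661067-249661316 (minus strand) for Cth and chr10:45341948-45342197 (minus strand) for Pemt. The Pemt window lies inside the annotated span of the gene. Capitals mark matches on either strand to TATAA (TATA box), GCGTG (core of the xenobiotic response element) or CACGTG (E-box).
Gnmt: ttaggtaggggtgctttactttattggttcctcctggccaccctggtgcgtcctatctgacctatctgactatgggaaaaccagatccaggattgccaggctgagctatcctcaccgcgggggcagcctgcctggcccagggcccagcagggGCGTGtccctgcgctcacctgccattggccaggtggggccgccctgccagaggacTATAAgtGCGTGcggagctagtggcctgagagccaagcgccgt
Cth: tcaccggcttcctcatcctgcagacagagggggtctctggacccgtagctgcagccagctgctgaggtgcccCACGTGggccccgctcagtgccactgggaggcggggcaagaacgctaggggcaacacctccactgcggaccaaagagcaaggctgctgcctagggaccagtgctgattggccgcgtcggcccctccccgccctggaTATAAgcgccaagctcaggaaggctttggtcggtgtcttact
Pemt: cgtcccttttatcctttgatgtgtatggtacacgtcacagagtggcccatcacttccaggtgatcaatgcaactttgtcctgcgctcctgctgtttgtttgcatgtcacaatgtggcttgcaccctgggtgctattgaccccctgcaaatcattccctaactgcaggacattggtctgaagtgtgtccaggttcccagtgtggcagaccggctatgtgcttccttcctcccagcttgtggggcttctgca
Gnmt and Cth each held TATAA, 43 and 42 bases before the start, a motif found in 24% of 33469 promoter windows of that length. Gnmt held GCGTG at 2 places, against 25.9% of all windows with at least 1 match. Cth held CACGTG, which 5.59% of all windows held. Members that were not called held these motifs as well, TATAA and GCGTG in Bhmt, GCGTG in Ahcy and CACGTG at 2 places in Shmt1. Over the 8 members, TATAA was in 3, GCGTG in 3 and CACGTG in 2. None of the 4 motifs searched was found in the Pemt window. The fourth, TGACNNNGC (core of the antioxidant response element, both strands), was in none of the 8 members' windows and in 10.1% of all windows. A match is a run of letters and not a shown binding site, and none of the marked matches overlapped another.

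Among the remaining enzymes of the cycle, Mat1a, which encodes the liver form of methionine adenosyltransferase, had log2 levels of 11.74, 11.92 and 12.08 (lowest, median and highest) at 641 mg/kg, against 11.86, 12.03 and 12.06 in vehicle livers. The groups overlapped, the fold change was 0.959 (0.866 to 1.06; limma adjusted p = 0.834), and no step between neighbouring groups in its order exceeded the larger SD. Ahcy, the S-adenosylhomocysteine hydrolase, had 11.94, 11.96 and 12.02 at 641 mg/kg, against 12.02, 12.07 and 12.11 in vehicle livers. Every Ahcy array at 641 mg/kg lay below every vehicle array, but the fold change was 0.934 (0.883 to 0.987; limma adjusted p = 0.280), and at 0.06 mg/kg Ahcy had a similar mean of 11.98 ± 0.07, against 11.97 ± 0.03 at 641 mg/kg.

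Bhmt, which returns homocysteine to methionine, had the widest spread within a group of any member. Its log2 levels were 11.09, 11.75 and 11.93 at 641 mg/kg, against 11.68, 11.82 and 12.29 in vehicle livers, and at 0.641 mg/kg they spread over 1.07 log2 units (SD 0.41). The groups overlapped, and the fold change at 641 mg/kg was 0.839 (0.6825 to 1.03; limma adjusted p = 0.5405). Its order by mean did not follow dose, with 0.06, 0.641, 6.41 and 64.1 mg/kg all above vehicle.

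Cbs, cystathionine beta-synthase, takes the step before Cth and commits homocysteine to cysteine. Its log2 levels were 10.01, 10.23 and 10.48 at 641 mg/kg, against 10.25, 10.42 and 10.51 in vehicle livers. The groups overlapped, and the fold change was 0.903 (0.819 to 0.996; limma adjusted p = 0.405). Against the 3 lowest doses it was 0.944 (0.871 to 1.02; limma adjusted p = 0.612).

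Shmt1 was the only member with a value above vehicle at 641 mg/kg. Its log2 levels were 9.83, 9.89 and 9.96 at 641 mg/kg, against 9.66, 9.71 and 9.82 in vehicle livers, so that no array of these groups overlapped. The fold change was 1.11 (1.03 to 1.198; limma adjusted p = 0.194), and against the 3 lowest doses 1.08 (1.02 to 1.15; limma adjusted p = 0.233). In all, 4 members lay wholly below vehicle at 641 mg/kg (Gnmt, Cth, Ahcy and Pemt), where 0.654% of all probe sets did, and 1 lay wholly above it, where 1.06% did.

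The question raised for these enzymes was whether a lower Gnmt is shared and goes with cysteine demand for glutathione, and the glutathione genes were therefore set beside them. A list of 20 genes held glutathione synthesis, recycling and turnover together with redox genes such as Srxn1 and Txnrd1. It was chosen with earlier results of these data known. Of its 19 measured genes 5 rose and none fell at 641 mg/kg against vehicle, where 1.13% of all probe sets were called higher. Those 5 include Srxn1 and Txnrd1, so they are not all glutathione enzymes. The median log2 fold change of the 19 was 0.105 at 641 mg/kg, with 14 above 0. At 64.1, 6.41, 0.641 and 0.06 mg/kg against vehicle it was 0.054, 0.048, 0.056 and 0.064. There 15, 13, 14 and 17 genes lay above 0, with none called. At 641 mg/kg against the 3 lowest doses the median was 0.035. In that comparison 6 of the 19 were called higher, where 1.18% of all probe sets were. Gsr, glutathione reductase, rose 1.965-fold (1.73 to 2.23; limma adjusted p = 2.39e-09). Both subunits of glutamate-cysteine ligase, the enzyme that consumes cysteine in the rate-limiting step, rose as well, Gclc 1.45-fold (1.32 to 1.595; limma adjusted p = 1.78e-06) and Gclm 1.57-fold (1.40 to 1.76; limma adjusted p = 2.595e-06). The redox gene Srxn1 rose 1.46-fold, in 2 of its 3 probe sets, and Txnrd1, a thioredoxin reductase, rose 1.295-fold, which is named because it was the remaining called gene and was chosen after its values were seen. Gss, glutathione synthetase, stood at 1.12-fold (1.01 to 1.251; limma adjusted p = 0.3685).

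In these livers, then, the transcripts of the cysteine-consuming ligase were higher at 641 mg/kg while those of the cysteine-supplying steps were lower (Cth) or not called (Cbs). Cysteine, glutathione and enzyme activity were not measured, so the transcripts give no flow through either route. The demand for cysteine was not tested.

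Other uses of cysteine and sulfur were followed in a list of 13 genes, 12 of them measured, of which 2 fell and none rose at 641 mg/kg (median log2 fold change -0.065), where 0.512% of all probe sets were called lower and 1.13% higher. Got1, an aspartate aminotransferase that also acts on a cysteine oxidation product, fell 1.29-fold (limma adjusted p = 0.00773). Papss2, which makes the sulfate donor for sulfotransferases, fell 1.29-fold (limma adjusted p = 0.0119), in 1 of its 2 probe sets. Cdo1, the dioxygenase that starts cysteine breakdown, stood at 0.898-fold (0.836 to 0.964; limma adjusted p = 0.133). Csad, which leads on to taurine, stood at 1.12-fold (1.02 to 1.24; limma adjusted p = 0.305). Its 6 arrays at 641 mg/kg did not overlap vehicle.

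Among 15 measured genes for the rest of the methionine cycle and for methyl transfer (16 listed), 1 fell and none rose at 641 mg/kg, beside 0.512% lower and 1.13% higher over all probe sets, with a median log2 fold change of -0.006. As3mt, an arsenic methyltransferase that uses S-adenosylmethionine, fell to 0.861 of vehicle (0.797 to 0.931; limma adjusted p = 0.03275). Mat2a, the methionine adenosyltransferase of tissues outside the liver, stood at 0.996-fold (0.843 to 1.18). Bhmt2, a relative of Bhmt, stood at 1.01-fold (0.952 to 1.07), and the methionine synthase gene Mtr, whose mean log2 level of 4.90 lay at the array medians, at 0.967-fold (0.8655 to 1.08).

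Genes of methionine salvage and of the start of polyamine synthesis, which draw on S-adenosylmethionine by another route, rose in 2 of 8 members and fell in none (median log2 fold change 0.148), beside 1.13% of all probe sets called higher and 0.512% lower. The spermine synthase gene Sms rose 1.30-fold (1.18 to 1.435; limma adjusted p = 0.00102), in 1 of its 2 probe sets. Mtap, which recovers methylthioadenosine, rose 1.215-fold (1.11 to 1.335; limma adjusted p = 0.01915), in 1 of its 3 probe sets. All 8 genes of this list had fold changes above 1.

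Of 14 measured folate enzymes (16 listed), 1 rose and none fell (median log2 fold change 0.064), against the same 1.13% higher and 0.512% lower over all probe sets. This was Aldh1l1, the liver formyltetrahydrofolate dehydrogenase, which rose 1.40-fold (1.22 to 1.61; limma adjusted p = 0.00406). In the list for choline, betaine and glycine, 1 of 18 measured genes (20 listed) rose and none fell (median log2 fold change -0.016), against those same shares. Cept1, a phosphotransferase that joins the last step of phosphatidylcholine synthesis from choline, rose 1.17-fold (1.08 to 1.26; limma adjusted p = 0.0228). Sardh, which oxidises the sarcosine that Gnmt makes, stood at 1.02-fold (0.902 to 1.14; limma adjusted p = 0.960). None of 4 measured serine genes (5 listed) was called. Sds, serine dehydratase, stood at 0.765-fold (0.617 to 0.947; limma adjusted p = 0.263) and Psph, which makes serine, at 1.13-fold (0.937 to 1.36; limma adjusted p = 0.691).

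Over these 7 lists, 9 of 90 genes were called higher and 3 lower at 641 mg/kg against vehicle, where 1.13% of all probe sets were called higher and 0.512% lower. None was called in either direction at any of the 4 lower doses. At 641 mg/kg against the 3 lowest doses the counts were 10 higher and 2 lower, where 1.18% of all probe sets were called higher and 0.786% lower.

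**Figure D3:**
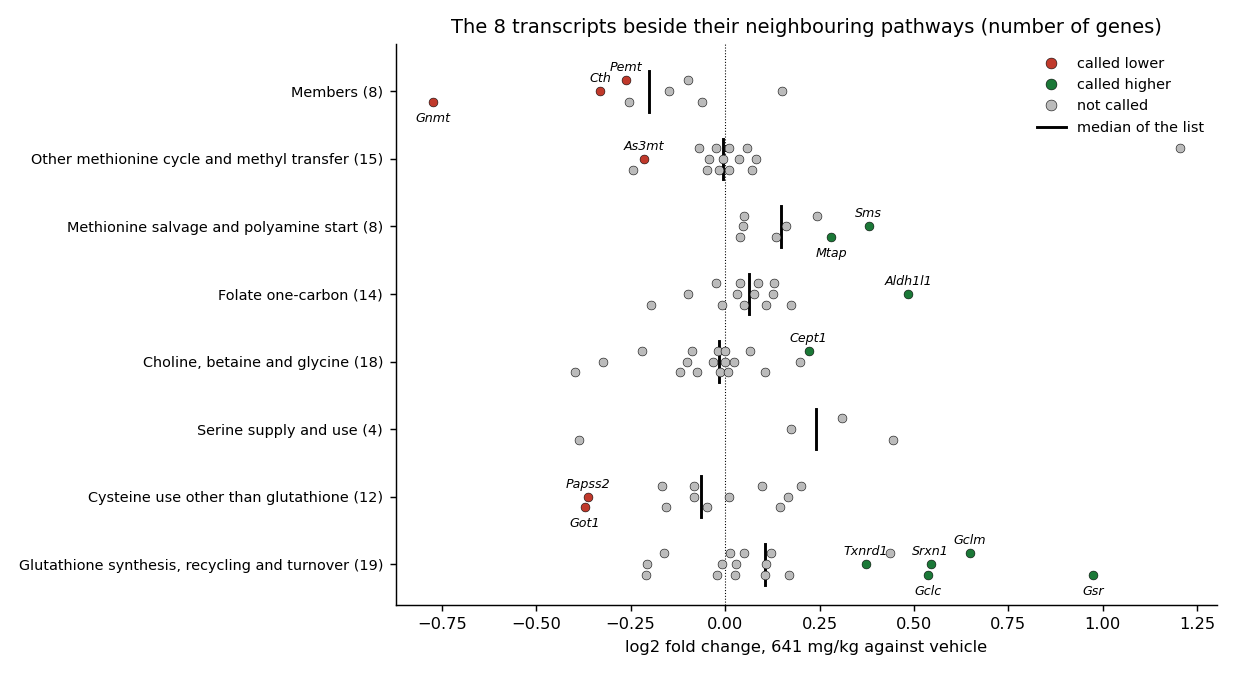
Log2 fold change at 641 mg/kg against vehicle (horizontal axis) of the 8 members and of the measured genes of 7 neighbouring lists (vertical axis, number of genes in brackets). Each point is a gene, coloured by its call, and black bars are list medians. The members' median lies at -0.20 and that of the glutathione list at 0.105.

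Over the 36 arrays together, those that stood low in Gnmt for their group tended to stand low in Bhmt. After the group mean was subtracted from each array, Gnmt and Bhmt correlated across the 36 arrays with Pearson's r = 0.638 (permutation p = 6e-05, adjusted 0.00066) and Spearman's rho = 0.579 (permutation p = 0.00068, adjusted 0.00748). Without the 2 arrays farthest from the median of Gnmt, r was 0.510 (adjusted p = 0.0166 by permutation). At 6.41 and 64.1 mg/kg the arrays did not run that way. There the array lowest in Gnmt (deviations -0.126 and -0.167) stood above its group mean in Bhmt (0.330 and 0.0976). The p-values come from two-sided permutation tests with 100000 resamples, shuffling arrays within groups, and are adjusted over the 11 relations computed. The values share an array and its normalization.

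The other 10 relations did not pass. Pearson's r with Gnmt was 0.360 for Cth, 0.340 for Ahcy, 0.328 for Mat1a, 0.291 for Pemt and 0.280 for Cbs, with adjusted permutation p-values from 0.187 to 0.241, and -0.157 for Shmt1 (adjusted permutation p = 0.400). Spearman's rho was 0.326 for Cth, 0.425 for Ahcy, 0.399 for Mat1a, 0.260 for Pemt, 0.271 for Cbs and -0.018 for Shmt1, with adjusted permutation p-values from 0.0767 to 0.924. The r of Pemt was 0.099 without the 2 arrays farthest out, so that value rests on them. The glutathione genes had an r with Gnmt of -0.241 (Gclc), -0.111 (Gclm), -0.284 (Gss) and -0.271 (Gsr), and a rho of -0.127, -0.058, -0.237 and -0.242, none of them past the threshold.

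**Figure D4:**
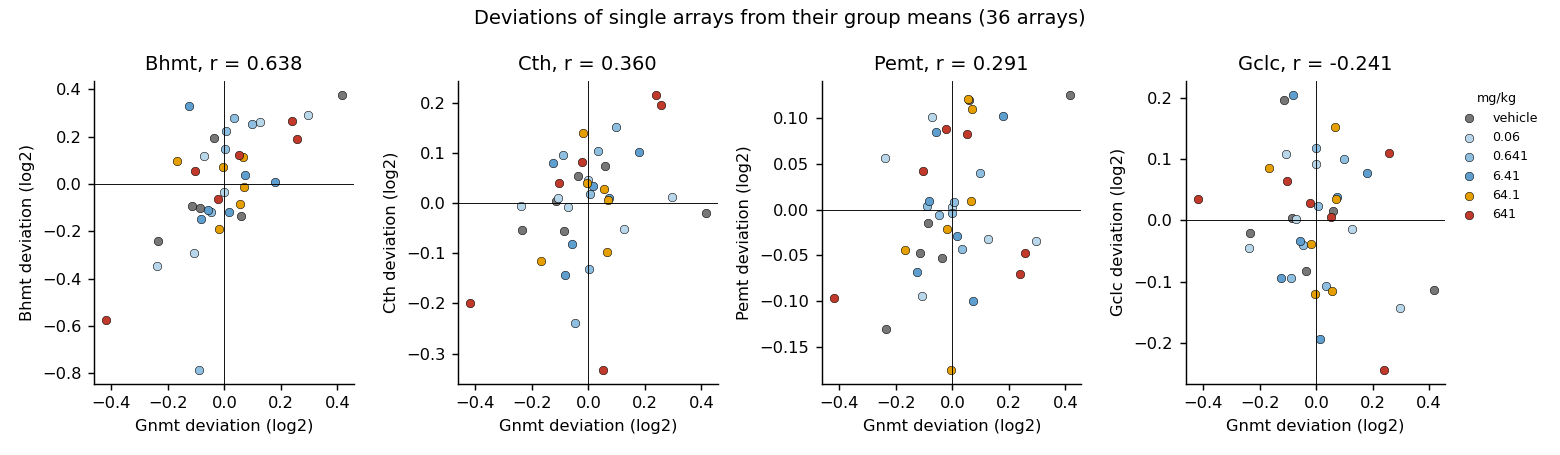
Deviation of each array from its group mean in log2 units for Gnmt (horizontal axes) and for Bhmt, Cth, Pemt and Gclc (vertical axes), 36 arrays coloured by HBCD dose in mg/kg. Bhmt follows Gnmt with r = 0.638, and the other 3 panels have r = 0.360, 0.291 and -0.241.

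Across all 36 arrays without subtracting group means, the genes whose levels followed Gnmt most closely among 7418 (mean log2 level of at least 6) were Ass1 (r = 0.849), Slc6a6 (0.823), Rarres2 (0.821), Cyp1a2 (0.797) and Pxdc1 (0.790). These are descriptions that hold the dose effect, and with group means subtracted r was 0.552, 0.385, 0.543, 0.141 and 0.268. Ass1, argininosuccinate synthase of the urea cycle, had a mean log2 level of 12.01 at 641 mg/kg against 12.51 in vehicle livers, and Slc6a6, the taurine transporter, 7.55 against 9.40. Among the other members, Cth came 16th in that order, Pemt 25th, Bhmt 41st, Ahcy 105th, Cbs 344th, Mat1a 667th and Shmt1 7161st.

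The tissue label held in every group, since the 7 measured hepatocyte markers (8 listed) had summed linear levels between 87670 and 95960 on every array. At 641 mg/kg that sum ranged from 88640 to 92460, against 92520 to 95460 in vehicle livers, with none of the 7 called and a median log2 fold change of -0.039. Against the 3 lowest doses 1 of the 7, Apoa1 (0.861-fold, limma adjusted p = 0.0113), was called lower. The summed level of 4 lymphocyte markers was also lower, at 67.7 to 85.4 at 641 mg/kg against 86.35 to 111 in vehicle livers. All 4 had mean levels below the array medians. Only Cd8a was called, in 1 of its 3 probe sets, and Cd3d lay slightly above vehicle (log2 fold change 0.03). Sums for 4 cholangiocyte, 6 stellate cell, 5 endothelial, 3 neutrophil and 4 pancreas markers overlapped between these groups, with none called. The part of these shifts in the members' values was not tested. The 3-prime minus 5-prime difference of the Gapdh control probe sets, a sign of RNA quality, was -0.023 ± 0.03 at 641 mg/kg against 0.004 ± 0.04 in vehicle livers (SD, n = 6 each; exact permutation p = 0.180, two-sided, smallest possible 0.00217), and that of actin 1.14 ± 0.06 against 1.17 ± 0.14 (exact permutation p = 0.597).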

How the data were processed

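RMA and affy are the tools named in the submitters' processing notes for the deposited log2 values, 1 per probe set. RMA corrects background, normalizes between arrays and summarises probes. Its settings are not given in the sources used here, and the values themselves showed the log2 scale (1.53 to 14.59, array medians 4.83 to 4.90). Nothing was normalized further. Of 31099 probe sets, 57 controls were left out. Symbols came from the platform annotation and were updated through a RefSeq table of assembly GRCr8. Of the tested probe sets, 20826 had 1 gene symbol, 436 several and 9780 none. A gene with several probe sets was represented by that with the highest mean. No pair of arrays was identical (r within groups 0.991 to 0.997).

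limma 3.58.1 in R 4.3.3 was run on all 36 arrays with group as its factor, with two-sided tests, Benjamini-Hochberg adjustment over all 31042 probe sets in each contrast, and calls under 0.05. The series design text names R/maanova at a false discovery rate of 5%, which was not used here. Intervals are 95% from the moderated fit. The fit was tested on simulated data. The number of arrays limits the precision, and levels of different probe sets were not compared.

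The members, the 7 neighbouring lists and the markers were chosen with earlier results of these data known. Named from each list were up to 4 called genes per direction with the smallest adjusted p, or, in a list with no call, the 2 of smallest p, plus a few fixed genes. Those most like Gnmt were the 5 with the highest Pearson r. Genes of a list without a probe set of that single symbol were not analysed here. Promoter windows are RefSeq's, and all 8 members matched. Alternatives covered the replicate block, array centring, a second quantile normalization, leaving out dim probe sets, other variance models, array weights, the groups fitted, a 1.2-fold minimum, joint adjustment, probe set averaging and leaving out single arrays.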

Additional observations from a re-analysis of the deposited data

Results flagged for a closer look

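A single value among the 48 groups of member values stood apart from its group. In Shmt1 at 6.41 mg/kg, replicate 3 had a log2 level of 9.95, with the next highest array at 9.77 and the lowest at 9.71. Chance marks about 1 in 20 such groups. Without that array, Shmt1 at 641 mg/kg against the 3 lowest doses had a limma adjusted p of 0.140 and was still not called.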

How the results depend on the processing

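At 641 mg/kg against vehicle, 3 of 8 members were called under all settings that left out 1 array (3 to 3 members), and 1 when only the arrays of those groups were fitted. The cause was not tested, although that fit has fewer arrays. Cth and Pemt kept log2 fold changes of -0.33 and -0.26 there. At 641 against 64.1 mg/kg the count was 1, Gnmt, which is a description since these arrays chose it. It was 0 with the replicate number as a block (no pairing is known), 0 with only those groups fitted and 2 when dim probe sets (no group mean of 6 or more) were dropped (Gnmt and Pemt, with fewer probe sets tested), and leaving out 1 array gave 0 to 1, with 0 in 8 of 12 cases (64.1 mg/kg replicates 2, 3, 5 and 6, 641 mg/kg replicates 1, 2, 4 and 5). At 641 mg/kg against the 3 lowest doses, leaving out 1 array gave 3 to 4 called members, with Gnmt among them as a description. Bhmt was called there with the replicate block (adjusted p = 0.0271), with the filter on dim probe sets (0.0265), with array weights (0.0211), with 1 value per gene (0.0407) and after leaving out any single 1 of 4 arrays (0.06 mg/kg replicates 2 and 3, 0.641 mg/kg replicate 2, 641 mg/kg replicate 6), and its adjusted p was 0.272 without replicate 5 of 641 mg/kg. For the results compared, the other alternatives that changed 1 choice left 203 cases unchanged. Of the rest, 4 counts moved, 4 results gained a call and 2 lost it. Leaving out 1 array left 396 cases unchanged, moved 8 counts and gained a call in 4. A single gene was unchanged if direction and call held. A count of calls was unchanged if it moved little, so that 3 to 4 was taken as unchanged. No direction was reversed. Same-numbered arrays of different groups correlated in their deviations between -0.252 and 0.321 (median 0.025, 90 pairs). Differently numbered arrays did so between -0.294 and 0.357 (median -0.002, 450 pairs). The numbers were not taken to pair the arrays, and the block changed no other member call. For small changes such as that of Ahcy (0.934-fold), the smallest change that 6 arrays per group can resolve was not computed.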

Other observations

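Inmt, an N-methyltransferase that uses S-adenosylmethionine, had the largest fold of the 15 genes in its list at 641 mg/kg, 2.31-fold (1.33 to 4.01; limma adjusted p = 0.133), with a mean log2 level of 8.64 against 7.43 in vehicle livers and overlapping groups. It was chosen after its values were seen. Agxt, a glyoxylate aminotransferase that makes glycine, stood 1.32-fold lower at 641 mg/kg (1.13 to 1.54, limma adjusted p = 0.0567). It was likewise chosen after its values were seen.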
